A study of Drosophila melanogaster with 8 samples.

Results

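Aminoacyl-tRNA synthetases, the enzymes that load each amino acid onto its tRNA, were followed at the mRNA level in exosomes released by Drosophila S2 cells and in the cells themselves. The genes were taken by name, as those whose deposited or current symbol was of the form Aats- or a capitalised amino acid code followed by RS, with or without -m for mitochondrial. This gave 32 of the 14012 genes in the table, 15 for mitochondrial and 17 for cytosolic enzymes, and the suffix alone set the compartment. GlyRS, HisRS, LysRS, ThrRS and GlnRS had no -m counterpart among the members. They were counted as cytosolic, and whether any of them also serves mitochondria cannot be told from these data. IleRS-m was the only member recognised by its current symbol and not by the deposited name. There were 4 exosome libraries (exosomal mRNA) and 4 cell libraries (total cellular mRNA), all of polyadenylated RNA from the S2 line with no treatment in the labels. S2 is a line made from embryos, whose cells resemble the phagocytic blood cells of the fly. The titles give each library of a group a number from 1 to 4. The labels do not tell whether the 4 of a group were grown apart, and p-values therefore cover the spread between libraries only, part of which may be technical.

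Each synthetase recognises a single amino acid and the tRNAs that belong to it, and spends ATP to join them. The charged tRNA is then carried to the ribosome by an elongation factor. Mitochondria translate their own few mRNAs with their own tRNAs, but the synthetases that charge those tRNAs are encoded in the nucleus, translated in the cytosol and imported. In animals many amino acids therefore have separate genes for the cytosolic and the mitochondrial enzyme, while in humans GlyRS and LysRS serve both compartments from a single gene. The enzymes fall into classes I and II, which have unrelated catalytic folds.

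The values were FPKM, fragments scaled by transcript length and by library size, summed over the transcripts of a gene, so levels of different genes are compared per length. The scale was unequal between libraries, with a summed FPKM of 91300 to 850300 for exosomes, against 102700 to 1141000 for cells. Depth, read from the steps of low values, was about 100900 fragments in exosome replicate 2 and between 1935000 and 6516000 in the 5 others in which a step was found, and it is unknown for both replicates numbered 1. In exosome replicate 2, 1 fragment on a transcript of 2000 bases was worth about 4.96 FPKM, against 0.0767 to 0.258 FPKM in the other 5. Of all 5868 genes tested, 42.3% were listed at 0 in exosome replicate 1 and 48.9% in exosome replicate 2, against 0.562% to 5.88% in the other 6 libraries, so a 0 in those 2 exosome libraries says little. Plasmatocyte markers, those of the blood cells that S2 resembles, were all above an FPKM of 1 in at least 1 cell library (10 of 10 genes). Their summed FPKM was 66.0 to 163 in exosome and 31.2 to 5071 in cell libraries. The markers disagreed between cell libraries. In cell replicate 1 Hml had 81.8 and SPARC 3003 FPKM, but NimC1 0.028, eater 0.339 and He 0.196 FPKM. In cell replicates 3 and 4 Hml had only 0.0372 and 0.226 FPKM. The crystal cell markers lz, PPO1 and PPO2 were at 0 in every exosome library and summed to at most 0.209 FPKM in a cell library. Lamellocyte markers summed to 5.19 to 17.5 FPKM in exosomes and 5.26 to 143 FPKM in cells. Of these, mys had 130 FPKM in cell replicate 1 and PPO3 17.5 FPKM in exosome replicate 1, while atilla was at 0 in every exosome library. Germline, muscle, neuron and fat body markers summed to at most 7.56 FPKM in an exosome and 12.6 FPKM in a cell library. The germline gene aub had 7.56 FPKM in exosome and 12.2 FPKM in cell replicate 2, while vas and osk were at most 0.435 FPKM.

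Mitochondrial synthetase mRNAs were scarce in exosomes and cells alike, and cytosolic ones were of middle to high rank. In exosome replicates 1 to 4 the median of the 15 mitochondrial enzymes was 1.24, 0, 0.923 and 0.926 FPKM, against 9.80, 2.39, 0.653 and 0.258 FPKM in cell replicates 1 to 4. The median of the 17 cytosolic enzymes was 12.3, 6.4, 6.04 and 11.5 FPKM for exosomes, against 67.6, 42.95, 5.397 and 3.0 FPKM for cells. The cytosolic median was thus higher than the mitochondrial median in each of the 8 libraries. The mitochondrial enzymes held 9.57%, 18.9%, 17.7% and 13.5% of the summed synthetase FPKM in exosomes, against 12.5%, 11.7%, 15.8% and 15.7% in cells, so the ranges of the 2 groups overlapped. All 32 together held 0.0761%, 0.0650%, 0.145% and 0.0667% of a library's summed FPKM in exosomes and 0.206%, 0.0914%, 0.132% and 0.0685% in cells. In a bulk preparation, fewer vesicles and less RNA per vesicle cannot be told apart.

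**Figure D1:**
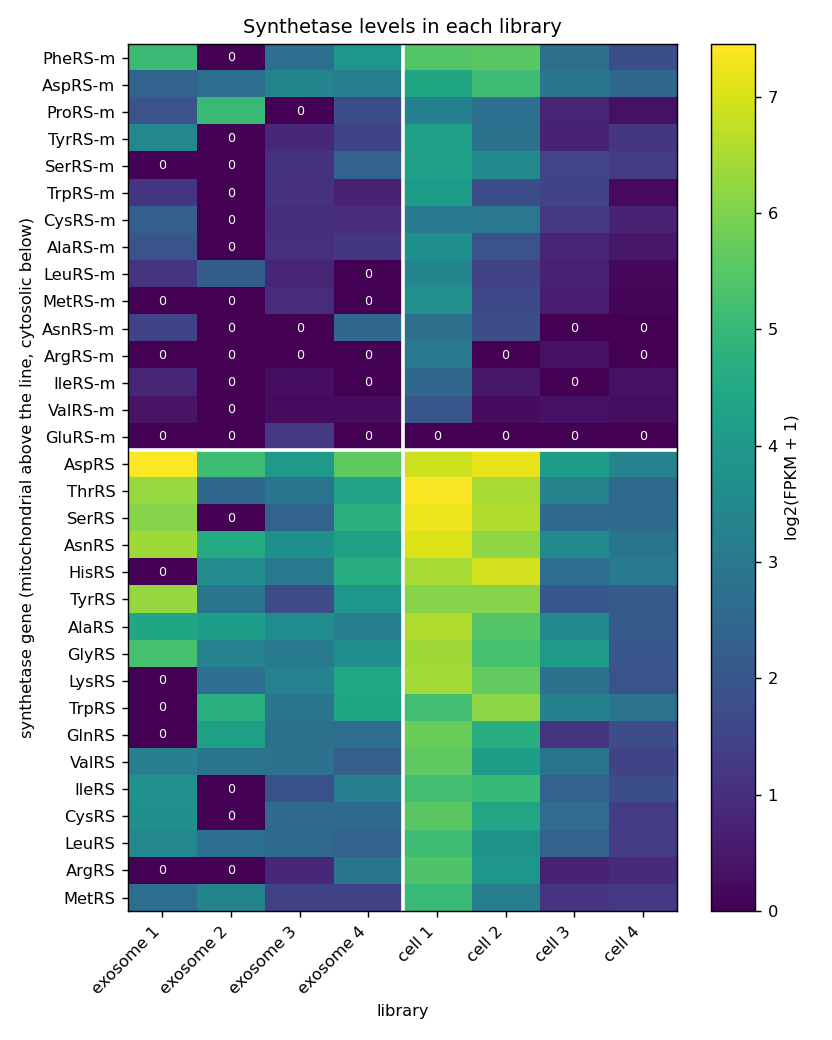
Level of each of the 32 synthetase genes (rows, by mean level within each compartment) in each library (columns), as log2(FPKM + 1); a white 0 marks a gene listed at 0. The 15 mitochondrial enzymes lie above the line and are darker than most of the 17 cytosolic ones, and zeros gather in exosome replicates 1 and 2.

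Zeros were more frequent among the mitochondrial enzymes in every library but exosome replicate 1. Of the 15 mitochondrial enzymes, 4, 12, 3 and 5 were listed at 0 in exosome replicates 1 to 4, against 1, 2, 3 and 3 in cell replicates 1 to 4. Of the 17 cytosolic enzymes, 5, 4, 0 and 0 were at 0 in exosomes, against 0 in every cell library. In exosome replicate 1 this was 26.7% of the mitochondrial and 29.4% of the cytosolic enzymes, both below the share of all tested genes at 0 there. In exosome replicate 2 the 9 single-transcript members above 0 rested on a median of 2.93 estimated fragments and at most 6.11. The 12 mitochondrial zeros in that library therefore cannot be read as absence.

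Rank within a library does not depend on the scale of the library. A percentile was taken among the 5868 tested genes, with tied values given the middle of their tie. The median percentile of the mitochondrial enzymes was 47.6, 24.5, 15.1 and 9.18 for exosomes, against 19.6, 4.46, 8.77 and 9.20 for cells. That of the cytosolic enzymes was 73.9, 61.4, 75.6 and 68.6 for exosomes, against 79.1, 70.5, 64.2 and 73.3 for cells. The higher mitochondrial percentiles of exosome replicates 1 and 2 came with many tied zeros, since a gene at 0 stood at percentile 21.2 in replicate 1 and 24.5 in replicate 2. Neither compartment separated the exosome from the cell libraries by rank.

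**Figure D2:**
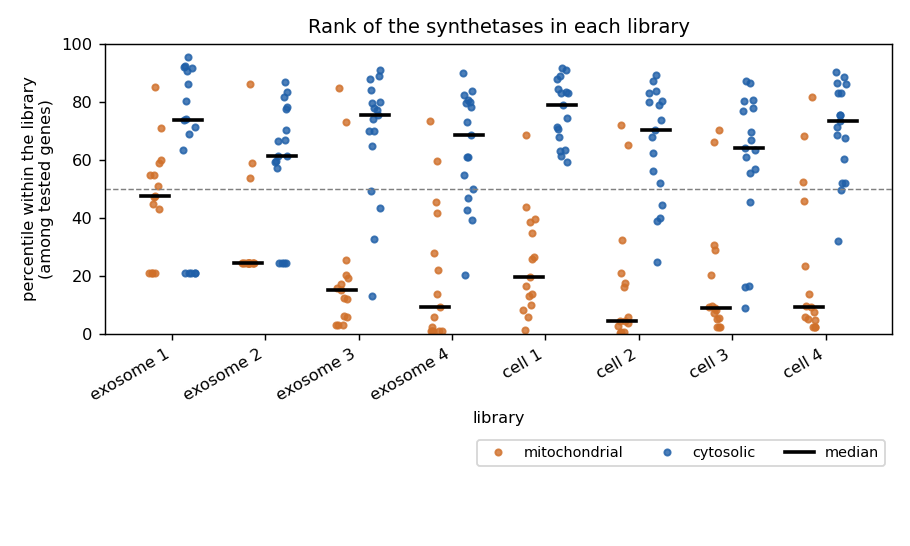
Percentile of each synthetase among the tested genes of its library (y axis, 0 to 100) for the 8 libraries (x axis); each point is a gene and the black bar is the median of its compartment. Cytosolic medians lie between 61.4 and 79.1, mitochondrial medians between 4.46 and 47.6, and the row of points at one height in exosome replicates 1 and 2 are genes listed at 0.

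For 12 amino acids both a mitochondrial and a cytosolic enzyme were in the table. The mitochondrial enzyme was the higher of the pair in 1 of 96 combinations of amino acid and library, the cytosolic enzyme in 90, and in 5 both were at 0. The exception was tryptophan in exosome replicate 1, where TrpRS-m had 1.19 FPKM and TrpRS was listed at 0. In exosome replicates 3 and 4 and in all cell libraries the cytosolic enzyme was higher in 12 of 12 pairs. These 12 pairs come from the same libraries and share their depth.

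**Figure D3:**
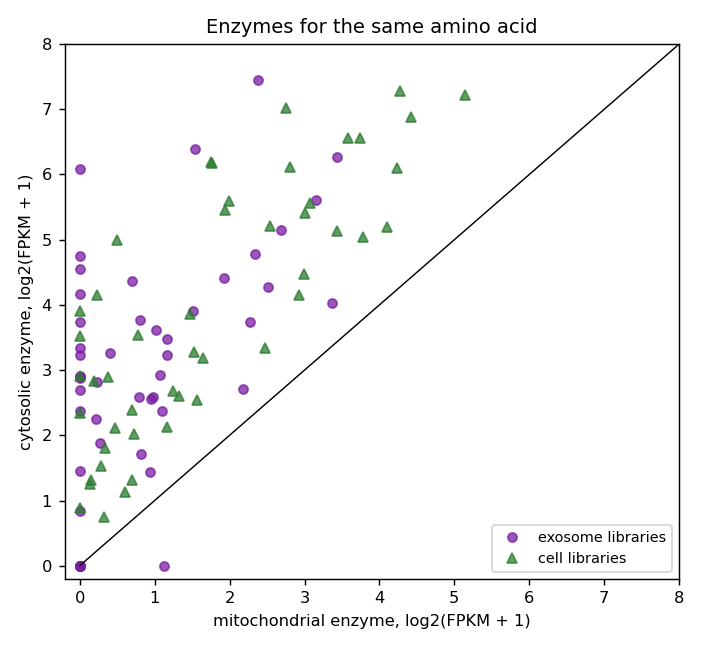
Cytosolic enzyme (y axis) against mitochondrial enzyme (x axis) for the same amino acid, both as log2(FPKM + 1); each of the 96 points is an amino acid in a library, circles for exosome and triangles for cell libraries, and the line marks equal levels. A single point, tryptophan in exosome replicate 1, lies below the line.

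Among the mitochondrial enzymes, PheRS-m and AspRS-m had the highest means over all libraries, 18.7 and 11.6 FPKM. PheRS-m charges mitochondrial tRNA with phenylalanine and works as a single chain, unlike its cytosolic counterpart of 2 kinds of subunit. Its level was 33.1, 0, 5.55 and 14.2 FPKM in exosomes, against 42.8, 46.0, 5.79 and 2.47 FPKM in cells. AspRS-m, the aspartate enzyme, had 4.202, 5.42, 9.35 and 7.93 FPKM in exosomes and 20.4, 34.2, 6.59 and 4.57 FPKM in cells, and was the only mitochondrial enzyme above 0 in all 4 exosome libraries. Its spread in exosomes was small, 6.72 ± 2.34 FPKM (SD, n = 4), against 16.4 ± 13.8 FPKM (SD, n = 4) in cells. Both genes overlapped between the groups.

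ProRS-m, the proline enzyme, was uneven in exosomes, with 2.77, 31.8, 0 and 2.36 FPKM, against 8.61, 5.56, 0.694 and 0.266 FPKM in cells. The value of 31.8 rested on an estimated 4.16 fragments of the shallow replicate 2. SerRS-m, the serine enzyme, had 0, 0, 1.15 and 4.08 FPKM in exosomes, against 18.4, 10.9, 1.97 and 1.50 FPKM in cells, and shares 13.9% of its exon bases with Nagk on the opposite strand. Of the tested members it had the lowest unadjusted p, 0.0848 from limma, with an adjusted p of 0.708. Its highest exosome value still lay above its 2 lowest cell values.

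TyrRS-m, for tyrosine, had 9.83, 0, 0.762 and 1.84 FPKM in exosomes and 17.9, 5.99, 0.653 and 1.25 FPKM in cells. TrpRS-m, for tryptophan, had 1.19, 0, 1.11 and 0.621 FPKM in exosomes and 16.2, 2.39, 1.88 and 0.139 FPKM in cells. LeuRS-m, for leucine, had 1.24, 3.55, 0.729 and 0 FPKM in exosomes and 9.80, 1.79, 0.616 and 0.113 FPKM in cells. In all 3 the highest cell value was that of replicate 1 and the groups overlapped. AsnRS-m, for asparagine, had 1.91, 0, 0 and 4.71 FPKM in exosomes, against 5.72, 2.38, 0 and 0 FPKM in cells.

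The lowest mitochondrial enzymes were close to the limit of the data. GluRS-m, for glutamate, was listed at 0 in 7 of 8 libraries and at 1.37 FPKM, an estimated 3.99 fragments, in exosome replicate 3. ArgRS-m stood at 0 throughout the exosomes, against 7.04, 0, 0.257 and 0 FPKM in cells. MetRS-m was above 0 in 1 exosome library, with 0.923 FPKM in replicate 3, and ranged from 0.0985 to 12.7 FPKM in cells. ValRS-m reached 0.323 FPKM in exosomes and 2.99 FPKM in cells, and IleRS-m 0.746 and 4.79 FPKM. CysRS-m and AlaRS-m, the 2 remaining mitochondrial enzymes, had 0 to 3.83 and 0 to 2.81 FPKM in exosomes and 0.624 to 7.38 and 0.392 to 12.3 FPKM in cells.

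AspRS, the cytosolic aspartate enzyme, had the highest mean of all 32 genes, 70.2 FPKM. It had 174, 34.5, 15.3 and 47.6 FPKM in exosomes and 117, 147, 16.8 and 9.08 FPKM in cells, and was the highest synthetase of every exosome library and of cell replicates 2, 3 and 4. Its mean was 67.9 FPKM in exosomes, with an SD of 72.2 over 4 libraries, against 72.5 FPKM in cells. Within the libraries it lay at percentiles 86.9 to 95.4 in exosomes and 87.4 to 90.5 in cells. In Release 6 of the fly annotation an antisense noncoding RNA covers 63.9% of its exon bases. Unless the counting used strand, reads of the gene and of this RNA cannot be told apart. Another noncoding RNA shares 6.8% of its exon bases on the same strand, where strand would not separate them.

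AsnRS, the cytosolic asparagine enzyme, had 82.6, 22.5, 12.4 and 18.3 FPKM in exosomes and 129, 72.1, 10.5 and 6.51 FPKM in cells. ThrRS, which charges threonine and clears mischarged serine, had 78.3, 4.73, 6.39 and 19.5 FPKM in exosomes and 169, 88.4, 9.12 and 5.03 FPKM in cells. Exosome replicate 1 was the highest exosome library and cell replicate 1 the highest cell library for both genes. TyrRS, for tyrosine, had 76.0, 6.4, 2.29 and 14.0 FPKM in exosomes and 67.6, 68.3, 3.07 and 3.36 FPKM in cells. LeuRS, for leucine, was more even in FPKM in exosomes, with 10.1, 5.55, 5.0 and 4.19 FPKM, against 34.0, 13.6, 4.22 and 1.49 FPKM in cells. Its value in exosome replicate 2 rested on an estimated 2.08 fragments.

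SerRS, HisRS and LysRS each had a 0 in an exosome library. SerRS, for serine, had 67.0, 0, 4.18 and 26.4 FPKM in exosomes and 154, 93.3, 4.84 and 5.06 FPKM in cells. HisRS, for histidine, had 0, 11.1, 7.07 and 23.8 FPKM in exosomes and 87.6, 121, 5.30 and 7.56 FPKM in cells. LysRS, for lysine, had 0, 5.65, 8.95 and 20.5 FPKM in exosomes and 83.8, 49.9, 5.90 and 2.76 FPKM in cells. In exosome replicate 4 all 3 lay above both of the lower cell replicates, numbered 3 and 4. Without exosome replicate 1, in which HisRS and LysRS were at 0, the log2 difference of LysRS (exosome minus cell) was -0.70, against -1.57 with all libraries.

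The remaining 9 cytosolic enzymes overlapped between the groups as well. AlaRS and GlyRS, for alanine and glycine, ranged from 8.34 to 20.4 and from 7.30 to 37.7 FPKM in exosomes and from 3.33 to 93.4 and from 3.0 to 83.7 FPKM in cells. ValRS ranged from 3.74 to 8.56 FPKM in exosomes and from 1.90 to 47.5 FPKM in cells. MetRS, which charges both initiator and elongator tRNA with methionine, ranged from 1.72 to 9.12 FPKM in exosomes and from 1.19 to 31.9 FPKM in cells. ArgRS, for arginine, was the only cytosolic enzyme that did not reach an FPKM of 1 in 4 libraries, with 0, 0, 0.795 and 6.49 FPKM in exosomes and 41.7, 14.1, 0.676 and 0.839 FPKM in cells. TrpRS, GlnRS, IleRS and CysRS each had 1 exosome library at 0, and their highest exosome values were 25.8, 17.7, 12.6 and 12.3 FPKM.

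Grouped by catalytic class, a grouping made after the values were seen, cytosolic class II enzymes had higher levels than class I enzymes. The median of the 8 class II enzymes was 52.3, 9.98, 8.12 and 20.01 FPKM in exosomes and 105, 80.2, 9.83 and 5.04 FPKM in cells. The median of the 9 class I enzymes was 8.56, 6.35, 5.0 and 5.51 FPKM in exosomes and 41.7, 21.2, 4.08 and 1.90 FPKM in cells. The class II median was higher in each of the 8 libraries, 1.57 to 6.11 times in exosomes and 2.41 to 3.79 times in cells. Of the 72 combinations of a class II and a class I enzyme, class II was higher in 51, 44, 66 and 65 for exosomes, against 72, 66, 64 and 64 for cells. In cell replicate 1 the lowest class II enzyme, at 83.7 FPKM, stood above the highest class I enzyme, at 67.6 FPKM. With the cytosolic PheRS subunits added, which are class II but were not taken by the name rule, class II was higher in 56.7% to 78.9% of combinations in exosomes and in 78.9% to 96.7% in cells. The lowest class II value in cell replicate 1 was then 53.2 FPKM, below the highest class I value, and the lowest ratio of medians was 1.44, in exosome replicate 3. The genes of a class are not replicates, and no test was made.

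**Figure D4:**
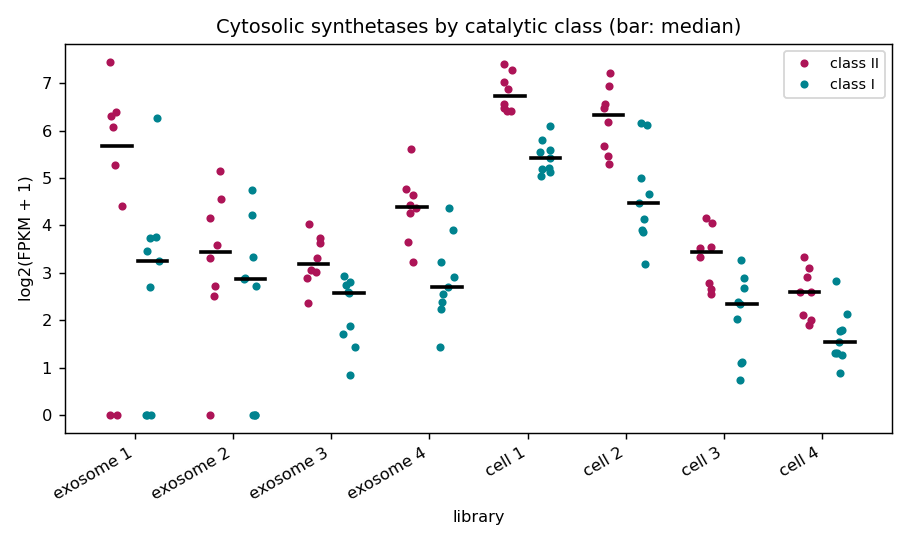
Level of each of the 17 cytosolic members as log2(FPKM + 1) (y axis) in the 8 libraries (x axis), with the 8 class II enzymes left of the 9 class I enzymes and a bar at each median. The class II median is the higher in every library, by 1.57 to 6.11 times in FPKM; the PheRS subunits are not drawn, and with them the classes overlap in cell replicate 1 and the lowest ratio is 1.44.

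The mitochondrial enzymes were divided by class in the same way, with more ties at 0. The median of the 6 class II enzymes was 2.79, 0, 1.08 and 4.39 FPKM in exosomes and 15.4, 8.24, 1.34 and 0.947 FPKM in cells. That of the 9 class I enzymes was 0.746, 0, 0.762 and 0 FPKM in exosomes and 7.38, 1.79, 0.525 and 0.139 FPKM in cells. The class II median was higher in 7 libraries and both were 0 in exosome replicate 2. The class I median of exosome replicate 4 was 0 because 5 of 9 enzymes were listed at 0 there. Of 54 combinations, class II was higher in 38, 18, 33 and 53 for exosomes, with 32 ties in replicate 2, against 41, 47, 41 and 41 for cells.

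The order of the synthetases was much the same in most libraries. Across the 32 genes, which share depth within a library and are not independent, Spearman's rho was 0.786 to 0.962 for exosome replicate 3 or 4 against a cell library and 0.831 to 0.968 for pairs of cell libraries. Between exosome replicates 3 and 4 it was 0.757. Exosome replicate 1 had 0.229 to 0.581 with the other libraries, and exosome replicate 2 had 0.229 to 0.610. Within a compartment the order was looser, from 0.318 to 0.872 for the 15 mitochondrial and from 0.427 to 0.963 for the 17 cytosolic enzymes among exosome replicates 3 and 4 and the cells.

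No synthetase was called different between exosomes and cells. Of the 32 members, 26 (10 mitochondrial and 16 cytosolic) exceeded an FPKM of 1 in at least 4 libraries and were tested in a fit across all 5868 such genes with limma on log2(FPKM + 1). None of the 26 was called in either direction at a Benjamini-Hochberg adjusted p of 0.05 (limma, adjusted p from 0.708 to 0.975), and of all tested genes 0.0% were called. At an unadjusted p under 0.05 there were 0 of 26, against 0.0852% of all genes higher and 4.62% lower. The same fit did not call Arc1, which had 6749 to 19061 FPKM in exosomes and 189 to 761 FPKM in cells. Its log2 difference was 4.62 (SE 2.13), with a limma adjusted p of 0.708. A gene that was not called therefore cannot be read as equal in the groups. Taken singly on the same scale, the 26 had two-sided exact permutation p from 0.114 to 0.943, where the smallest that 4 against 4 allows is 0.0286. In 0 of 26 did the exosome and cell values not overlap, against 0.0341% of all genes with exosomes higher and 0.75% with exosomes lower, and by rank within the library it was again 0, against 2.51% and 2.06%. The standard errors that limma gave the 26 differences ran from 0.762 to 1.66 on the log2 scale. They were set by the spread of genes of similar level, and a gene's own spread had next to no weight in them or in the limma p. The same holds for the standard error of Arc1. As rounded, 5 of the differences (HisRS, LysRS, IleRS, SerRS-m and TrpRS-m, all negative) were larger than their standard error. That of CysRS-m, -0.955, was as large as its standard error of 0.955.

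The differences, on a scale that understates the change of low genes, lay mostly below 0, as did those of the other genes. Of the 26 tested members 24 had a negative log2 difference, exosome minus cell, against 85.7% of all genes tested, and the medians were -0.82 for the 10 mitochondrial enzymes, -0.83 for the 16 cytosolic enzymes and -1.01 for all genes. With quantile normalization 11 of 26 were below 0 and with library medians set equal 7 of 26, where 44.0% and 39.8% of all genes were below 0 and the medians of all genes were 0.11 and 0.22. The mitochondrial less the cytosolic median was 0.01. Relative to the median of all genes, the mitochondrial median was higher by 0.19 and the cytosolic by 0.17. With quantile normalization these became 0.24 and -0.20, so the cytosolic sign turned, and with no filter on low values both were negative, -0.29 and -0.41. With exosome replicates 1 and 2 left out both were negative as well, -0.14 and -0.21. The mitochondrial value was -0.35 without exosome replicate 1, -0.09 without both replicates numbered 1 and -0.24 for the single enzyme above an FPKM of 10, and the cytosolic value was -0.14 with a pseudocount of 10. The side of the all-gene median on which either compartment lay thus depended on the libraries and settings used.

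ProRS-m and AspRS had the only positive log2 differences, 0.41 (SE 1.135) and 0.16 (SE 1.66), with limma adjusted p of 0.908 and 0.975. The difference of ProRS-m was -0.55 without exosome replicate 2 and -0.07 without cell replicate 4. That of AspRS was -0.47 when exosome replicate 1 was left out, -0.25 with cell replicate 3 left out and -0.52 with cell replicate 4 left out. HisRS had the most negative difference, -1.98 (SE 1.47), and SerRS-m followed with -1.83 (SE 1.06), both with a limma adjusted p of 0.708. LysRS, SerRS, IleRS, TrpRS, CysRS and TrpRS-m lay between -1.57 and -1.17. Each of these 8 was listed at 0 in exosome replicate 1 or 2, as were 14 of the 26 tested members. With both of those libraries left out, the 8 differences lay between -1.17 and -0.32, all negative. HisRS was at -0.97, SerRS-m at -0.96, LysRS at -0.32 and TrpRS at -0.72. In that setting the filter took in ArgRS and dropped LeuRS-m, which left 17 cytosolic and 9 mitochondrial enzymes. Of these 26 tested members 25 were below 0, as were 88.9% of all tested genes. The median of all genes was -0.755 there, with LysRS and TrpRS above it and the others of the 8 below it. The order also rested on exosome replicate 1, since without that library alone HisRS was at -1.04, TrpRS at -0.36 and SerRS, at -2.36, was the most negative.

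**Figure D5:**
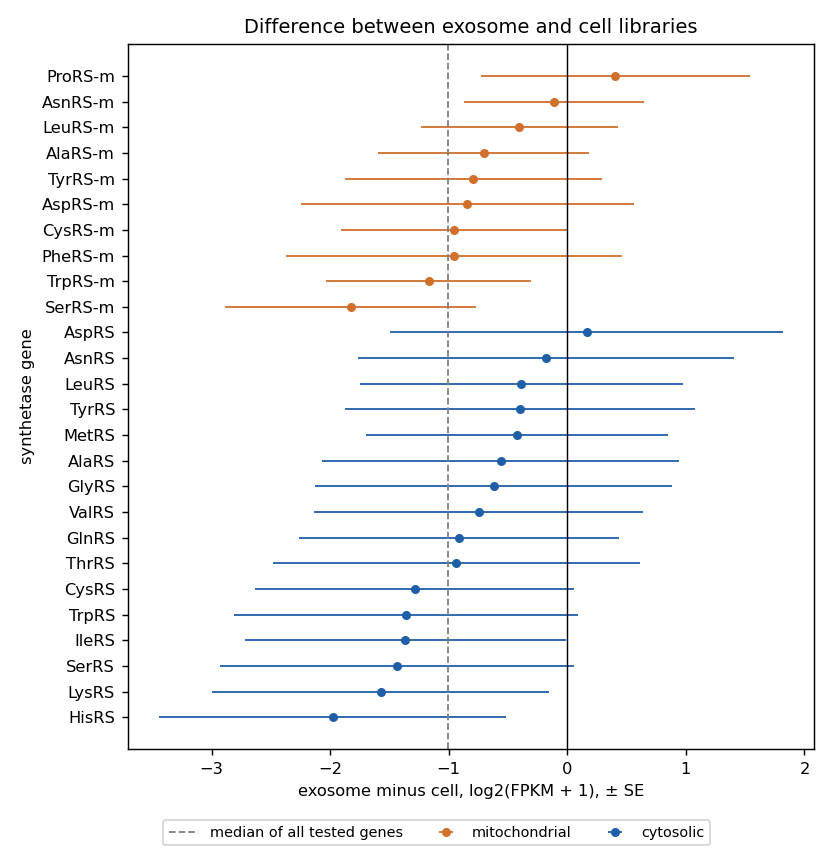
Log2 difference, exosome minus cell, on log2(FPKM + 1) (x axis) for the 26 tested synthetases (y axis), mitochondrial above cytosolic; bars are the standard error from limma, with 4 libraries a group, and the dashed line is the median of all tested genes at -1.01. Differences run from -1.98 to 0.41 and none passed the test.

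The cytosolic enzymes that the name rule did not take were the fused glutamate and proline enzyme GluProRS and the PheRS subunits alpha-PheRS and beta-PheRS. Exosome replicate 1 had a 0 for all 3, and 0 of 3 were called (limma adjusted p from 0.733 to 0.755). The alpha-PheRS gene had 0, 20.04, 1.02 and 5.87 FPKM in exosomes and 53.2, 24.1, 3.49 and 1.76 FPKM in cells. The beta-PheRS gene had 0, 11.5, 1.76 and 3.61 FPKM in exosomes and 59.7, 23.0, 1.996 and 1.77 FPKM in cells. Both subunits are needed for the enzyme, and both genes overlapped between the groups.

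Partners of the synthetases gave 7 genes in the table, of which 3 were tested and 0 called by limma. The 3 were the scaffold genes AIMP1, AIMP2 and AIMP3, whose mammalian counterparts hold several cytosolic synthetases in a complex. AIMP3 had 154, 78.6, 11.1 and 36.8 FPKM in exosomes and 73.7, 118, 11.3 and 4.55 FPKM in cells, and AIMP2 had 71.3, 59.7, 5.41 and 25.7 FPKM in exosomes and 80.5, 82.2, 6.80 and 2.09 FPKM in cells. Their log2 differences were 0.81 and 0.55 and that of AIMP1 was 0.48, with limma adjusted p from 0.868 to 0.919. The 7 members whose mammalian counterparts sit in that complex (ArgRS, AspRS, GlnRS, IleRS, LeuRS, LysRS and MetRS), also grouped after the values were seen, had a median of 5.49, 5.65, 5.0 and 6.49 FPKM in exosomes and 41.7, 24.3, 4.08 and 2.42 FPKM in cells. GatA and GatB, of the enzyme that makes mitochondrial glutaminyl-tRNA, were at 0 in exosome replicates 1 and 2 and reached 3.06 and 0.925 FPKM in exosomes and 20.5 and 7.66 FPKM in cells.

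Of the 11 genes that deliver charged tRNA to the ribosome, 9 were tested and 0 called (limma adjusted p from 0.711 to 0.983), with a median log2 difference of -0.83. The elongation factor gene eEF1alpha1, whose product carries charged tRNA, had 0, 1257, 422 and 1843 FPKM in exosomes and 6195, 3563, 294 and 191 FPKM in cells, so a gene of general need was at 0 in exosome replicate 1. Its exchange factor gene eEF1beta had 5857, 326, 40.7 and 521 FPKM in exosomes and 1601, 1442, 58.6 and 56.4 FPKM in cells. Of the 9 genes listed for the making, trimming, export or modification of tRNA, 9 were tested and 0 called (limma adjusted p from 0.708 to 0.939), with a median of -0.90 and 9 of 9 below 0, where 85.7% of all tested genes were. Polr3A, of RNA polymerase III, had a log2 difference of -1.65, an unadjusted p of 0.0441 and an adjusted p of 0.708 from limma. La, which binds the ends of new tRNA, had 56.9, 44.7, 15.5 and 54.1 FPKM in exosomes and 204, 166, 20.1 and 11.5 FPKM in cells. The gene emb, a general nuclear export receptor, had 5.89, 2.32, 7.90 and 6.55 FPKM in exosomes, against 37.0, 14.0, 8.77 and 1.86 FPKM in cells.

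Of 8 genes listed for amino acid deprivation and the Atf4 response, 7 were tested and 0 called (limma adjusted p from 0.708 to 0.952), with a median of -0.75. Thor, the fly 4E-BP translation inhibitor, had 3623, 624.5, 172 and 518 FPKM in exosomes and 715, 1019, 797 and 72.9 FPKM in cells. The gene crc, the fly Atf4, had 338, 81.3, 25.2 and 88.3 FPKM in exosomes and 313, 154, 33.6 and 13.3 FPKM in cells. The groups overlapped for both genes.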

How the data were processed

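Polyadenylated RNA of 4 exosome and 4 cell libraries of the S2 line was analysed from the deposited gene table. The deposited values were read as FPKM: they are fractional, their column sums differ, and Cufflinks, which gives this unit, is among the named tools. TopHat2, Cufflinks, DESeq2 and the build dm3 are in the submitters' processing notes, without versions or roles. Per the labels' protocols, RNA was taken with a Qiagen micro kit and libraries with a directional kit; no source used here says if strand entered the counting. The deposited transposon table was not used.

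The 21081 transcripts were summed to 14012 genes by CG identifier, of which 13538 matched Release 6, used for names, lengths and overlaps only. Genes above an FPKM of 1 in at least 4 libraries (3 where 6 libraries remained) were tested on log2(FPKM + 1), with a pseudocount of 1. The test was limma 3.58.1 in R 4.3.3 with a trend, no block and Benjamini-Hochberg adjustment at 0.05. The fit was first run on simulated data, where recovery of changed genes was required only at a spread below the real one. How many it recovers at the real spread is not given here. Depth was estimated from single-transcript genes: low values lay within 0.15 of a whole fragment for 75.5% to 88.5% in 6 libraries (30% if evenly spread), but for 41.8% in exosome replicate 1 and 33.2% in cell replicate 1, where no depth is given.

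Values in every library are given for the 6 enzymes of each compartment with the highest mean and the 3 tested ones with the largest and the smallest difference, and for up to 2 genes of each pathway list by mean. GatA, GatB, Polr3A and the lowest enzymes were named after their values were seen. Members and lists were chosen with earlier results of these data known. Of the listed symbols 10 were not matched.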

Additional observations from a re-analysis of the deposited data

Results flagged for a closer look

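In 62 groups of 4 libraries with any spread, on log2(FPKM + 1), 4 had a library far from the other 3. Chance gives about 1 in 20 where values are not tied, and that rate does not hold for groups with several zeros. ArgRS-m had 7.04 FPKM in cell replicate 1 and ValRS-m had 2.99 FPKM there, both far above the other cell libraries. MetRS-m had 0.923 FPKM and GluRS-m 1.37 FPKM in exosome replicate 3, and both genes were listed at 0 in the other 3 exosome libraries. With 3 libraries at 0, any value above 0 in the remaining library is flagged. The exosome values rested on an estimated 3.82 and 3.99 fragments.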

How the results depend on the processing

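Under 19 alternatives limma called 0 genes of the whole table and 0 synthetases, and the lowest adjusted p of a member was 0.211. At an unadjusted p under 0.05, 1 member was higher with quantile normalization, 1 was lower without exosome replicate 4 and 2 were lower without cell replicate 4. The 271 genes lower at an unadjusted p under 0.05 became 22 with both replicates numbered 1 left out and 1213 without cell replicate 4. Of 462 values of a tested member, 82 were identical under their alternative (block, filters, highest transcript). With equal library medians, an alternative added after the data were seen, every member shifted by the same 1.22. Of the 354 other values 314 kept the direction and 40 did not, and 20 of 26 members turned at least once. Leaving out 1 library at a time, the median log2 difference ran from -1.44 to -0.08 for cytosolic and from -1.30 to -0.43 for mitochondrial enzymes, and the mitochondrial less the cytosolic median from -0.48 to 0.23. With quantile normalization the mitochondrial median was 0.35 and the cytosolic -0.08, and with library medians set equal 0.40 and 0.39, since both set the libraries to a common centre.

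Leaving out 1 library turned the sign of 10 members, with ranges of -0.84 to 0.53 for AsnRS, -0.55 to 1.13 for ProRS-m, -1.68 to 0.02 for PheRS-m, -1.33 to 0.15 for AlaRS, -0.93 to 0.37 for MetRS, -1.01 to 0.27 for LeuRS, -0.52 to 0.77 for AspRS, -1.25 to 0.28 for TyrRS, -1.43 to 0.035 for GlyRS and -0.49 to 0.22 for AsnRS-m. HisRS ran from -2.69 to -1.04 and SerRS-m from -2.32 to -1.30. With quantile normalization 13 turned, to 0.12 for GlnRS, 0.19 for AsnRS, 0.38 for MetRS, 0.37 for TyrRS-m, 0.11 for AspRS-m, 0.45 for LeuRS, 0.016 for ValRS, 0.024 for TyrRS, 0.59 for AlaRS-m, 1.16 for AsnRS-m, 0.30 for TrpRS-m, 0.78 for LeuRS-m and 0.33 for CysRS-m. The uniform shift of equal library medians, which tells nothing of single members, put 17 above 0, at 0.31 for GlnRS, 1.05 for AsnRS, 0.26 for PheRS-m, 0.66 for AlaRS, 0.80 for MetRS, 0.43 for TyrRS-m, 0.38 for AspRS-m, 0.84 for LeuRS, 0.48 for ValRS, 0.83 for TyrRS, 0.52 for AlaRS-m, 0.28 for ThrRS, 0.60 for GlyRS, 1.11 for AsnRS-m, 0.053 for TrpRS-m, 0.82 for LeuRS-m and 0.27 for CysRS-m. With equal summed FPKM AsnRS-m was 0.13, and with the highest transcript IleRS was 0.92, where only RC was used, which was at 0 in cell replicates 2 to 4. With both replicates numbered 1 left out GlnRS was 0.71, LysRS 0.036, MetRS 0.22 and LeuRS 0.036. With exosome replicates 1 and 2 left out, added after the data were seen, ProRS-m was -0.90, AspRS -0.58 and AsnRS-m 0.13. For the turns with quantile normalization, equal sums or libraries left out, the cause was not tested.

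The libraries share only a replicate number. Deviations of same-numbered libraries from their group means correlated at 0.233, 0.191, 0.452 and -0.0676 across genes for numbers 1 to 4, and exosome replicate 4 correlated best with cell replicate 2 (0.413), so not every library matched its own number best. With a replicate block limma called 0 genes, 163 were lower at an unadjusted p under 0.05 against 271, and the medians stayed at -0.82 and -0.83 since the block leaves the differences as they were. Depth limits exosome replicate 2 most, where 5 of 9 single-transcript members above 0 rested on 3 or fewer estimated fragments.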

Other observations

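Of the 32 synthetases, 24 had a single transcript in the table and 8 had more. IleRS was split unlike in the libraries. Its transcript RC held all of its signal in exosome replicates 1, 3 and 4, with 12.6, 2.69 and 8.44 FPKM, and in cell replicate 1, with 36.0 FPKM, and was at 0 in the other libraries. In cell replicate 2 its signal was on transcripts RA and RD, with 13.5 and 17.3 FPKM, and in cell replicate 4 with 0.663 and 1.82 FPKM. In cell replicate 3 it was on RA alone, with 4.08 FPKM. ValRS was split unlike as well. All of its signal was on RA in exosome replicates 1 and 3, with 8.56 and 6.04 FPKM. In exosome replicate 4 and cell replicates 2 and 4 it was on RB alone, with 3.73, 16.7 and 1.90 FPKM. With the highest transcript the log2 difference of ValRS was -2.09, against -0.75 with transcripts summed. The second transcripts of HisRS and GlyRS were listed at 0 in all 8 libraries.

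In Release 6, 14 of the 32 synthetases share exon bases with a gene on the opposite strand. The share was over 10% of the exon bases in 4, ArgRS-m with mRpS9 (11.8%), SerRS-m with Nagk (13.9%), CysRS-m with CG13016 (14.3%) and AspRS with an antisense RNA (63.9%). On the same strand, HisRS shares 8.9% of its exon bases with Bx and AspRS 6.8% with a noncoding RNA. The 32 genes lie on all major arms, with 10 on 3L, 8 on 2R, 6 on 2L, 5 on 3R and 3 on X.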
